A study of Drosophila melanogaster with 36 samples.

Results

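The active and the inactive derivative of chemotype 2 (CT2), which the study groups by a thienopyrrole core, were compared gene by gene in Drosophila S3 cells. The 6 libraries were chosen by their labels alone, as the 3 of cells with active CT2 (TPE-69) and the 3 of cells with inactive CT2 (TPE-67), of 36 libraries in the series. S3 is a line of cells grown from Drosophila embryos. All 6 cultures were fed 200 µM oleic acid (OA) and received the derivative at 1 µM in 0.1% DMSO for 4 h, so that both arms carry the fatty acid, the solvent and a small molecule, and differ in the derivative. Control cells of the same design were vehicle OA cells, with 200 µM OA and 0.1% DMSO and no derivative, and vehicle noOA cells, with 0.1% DMSO alone. Cells given an active or inactive derivative of chemotype 1 (CT1) or chemotype 3 (CT3), 3 libraries each, served to ask whether a difference was particular to CT2. They also entered the fit behind every comparison, in which 22 libraries share 1 estimate of the spread. RNA came from whole cultures of 1 cell line, and the labels do not say whether libraries of a group came from cultures set up on separate days. The p-values therefore measure the spread between the libraries of this fit.

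OA taken up by a cell is joined to coenzyme A by acyl-CoA synthetases and is then either stored or burned. For storage it is built into triacylglycerol and packed into lipid droplets, whose surface carries perilipins. For burning, long chains pass into mitochondria bound to carnitine, or are first shortened in peroxisomes, and beta-oxidation cuts them step by step into acetyl-CoA. The derivatives belong to a set of small molecules found by their effect on lipid storage in fly cells, and the comparison of a derivative that retains the effect with a close relative that lacks it asks which transcripts go with the activity rather than with the scaffold.

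The 3 active CT2 libraries held 5312072, 5522487 and 5167327 counts, against 3048513, 2939893 and 6441640 counts in the 3 inactive CT2 libraries. Between 41.6% and 51.1% of the counts in active CT2 libraries and between 35.6% and 51.3% in inactive CT2 libraries lay on an 18S rRNA gene. Values are given as CPM, the count of a gene relative to the total of its library, after scaling by edgeR's trimmed mean factors. Across genes, Spearman's rho between libraries was 0.991 to 0.992 within active CT2 and 0.979 to 0.986 within inactive CT2, against 0.979 to 0.988 between the groups, so inactive CT2 libraries differed among themselves about as much as from active CT2 libraries. With active CT2 libraries, inactive CT2 replicate 1 had the lowest rho, 0.979 to 0.981, against 0.986 to 0.988 for inactive CT2 replicates 2 and 3. Of 8 plasmatocyte markers all had reads, and their summed level was 4491 to 4799 CPM in active CT2 libraries and 4291 to 4641 CPM in inactive CT2 libraries. Most of this sum was Pxn, at 3253 to 3501 CPM over the 6 libraries. He had 1.96 to 3.55 CPM and NimC1 0 to 0.399 CPM. Neuron markers, mostly elav and brp, summed to 38.3 to 43.7 CPM in active CT2 libraries and 36.3 to 43.4 CPM in inactive CT2 libraries. Among muscle markers only sls, a very long gene, had a level above 1 CPM, with 33.4, 44.3 and 36.4 CPM in active CT2 libraries, against 22.7, 29.5 and 29.2 CPM in inactive CT2 libraries (adjusted p = 0.0227, edgeR), while Mhc, Tm2, wupA and up were at or near 0. Among germ line markers aub had 21.5 to 21.97 CPM in active CT2 libraries and 16.3 to 20.2 CPM in inactive CT2 libraries (adjusted p = 0.455, edgeR), and bam was under 1 CPM. Markers of fat body summed to at most 0.599 CPM in active CT2 libraries and to 0 in inactive CT2 libraries, with Lsp1alpha, Lsp2, Fbp1 and Fbp2 at 0 reads in all 6.

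Of 7522 genes tested, 187 (2.49%) differed between active and inactive CT2 cells at an adjusted p under 0.05 (edgeR quasi-likelihood F test, Benjamini-Hochberg adjustment over all genes tested). They are called differentially expressed (DE) here. Higher levels with active CT2 were far more frequent, with 153 genes higher (2.03%) and 34 lower (0.452%). The changes were small. The median log2 fold change was 0.38 among the higher genes, a 1.30-fold difference, and -0.31 among the lower genes, and only 9 of the 187 differed by 1 or more on the log2 scale. Dnaaf4, chosen after its values were seen, had the largest value (2.46) but an average level too low for the rule for named genes. In 138 of the 153 higher genes every active CT2 library lay above every inactive CT2 library, and in 30 of the 34 lower genes every active CT2 library lay below; over all genes tested such a separation was found upward in 8.87% and downward in 7.56%. The count depended on single libraries. Leaving out the deepest library, inactive CT2 replicate 3, gave 59 DE genes. Leaving out an active CT2 library gave 118 (replicate 1), 92 (replicate 2) and 134 (replicate 3). The count became 102 when inactive CT2 replicate 1 was dropped and 420 when inactive CT2 replicate 2 was dropped. In bulk RNA, fewer cells expressing a gene and less RNA of it per cell cannot be told apart.

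**Figure D1:**
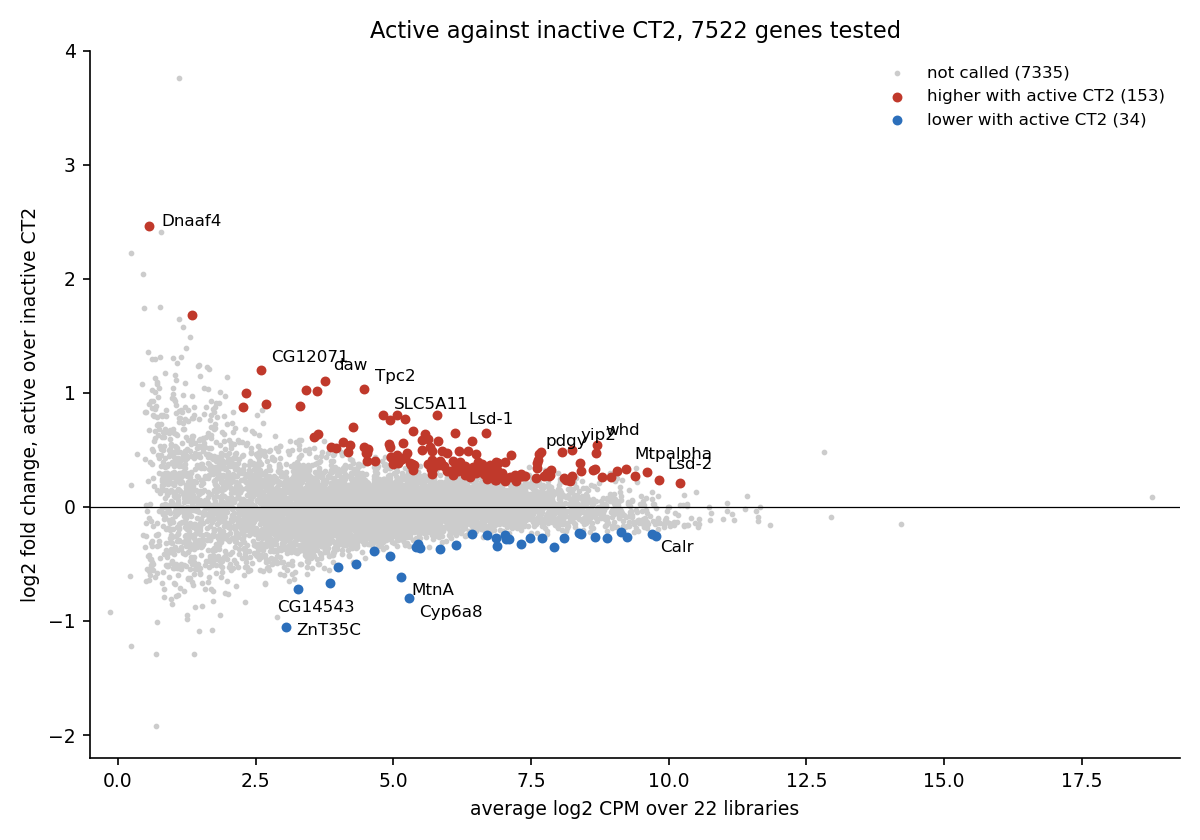
Log2 fold change of active over inactive CT2 (y axis) against the average log2 CPM over the 22 libraries of the fit (x axis), 1 point per gene tested. Red points are the 153 genes higher and blue points the 34 genes lower with active CT2 at an adjusted p under 0.05; all but 9 of the 187 lie within 1 log2 unit of 0.

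The difference between the arms ran with gene length. When genes were ranked by exon length and divided into 6 bins, the median log2 fold change was -0.11 in the shortest bin (up to 1064 bases) and 0.10 in the longest (4552 bases and over), with -0.07, -0.04, -0.01 and 0.03 in between. The longest bin held 64 of the higher genes and 1 of the lower genes, and the shortest bin 4 higher and 10 lower. The median exon length was 3958 bases for higher and 1538 bases for lower genes, against 2104 bases for all genes tested. The same medians for active CT2 against vehicle OA lay between -0.01 and 0.04, while those for inactive CT2 against vehicle OA ran from 0.11 in the shortest bin to -0.06 in the longest. Among single libraries the slope was steepest in inactive CT2 replicate 1, whose short genes lay 0.16 above and whose long genes lay 0.15 below the mean of the 6 libraries on the log2 scale; inactive CT2 replicate 3 sloped the same way (0.09 to -0.06) and inactive CT2 replicate 2 the opposite way (-0.10 to 0.04). The active and inactive pairs of CT1 and CT3 showed medians between -0.03 and 0.01 in every bin. With an offset for the length trend of each library, 101 genes were higher (1.38% of 7343 with a known length) and 46 lower (0.626%), so that higher genes made up 68.7% of DE genes, against 81.8% without it. Of the 153 higher genes, 149 had a length and 90 stayed DE and higher with the offset; of the 34 lower genes 24 stayed DE and lower. Length moved with a part of the calls, and the cause of the trend was not tested. The calls that were kept fell unevenly. Of the 32 higher genes in the gene lists described next 27 stayed DE, against 63 of the 117 higher genes in no list. Exon length was not matched between list genes and the others, so these counts do not compare them at equal length. EcR, srl, Lsd-2 and foxo of the lists lost the call, with exons of 9934, 4642, 4598 and 4130 bases. Kept were yip2 and Mcad (1391 and 1461 bases), but also Lpin and Acsl (5511 and 4902 bases).

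**Figure D2:**
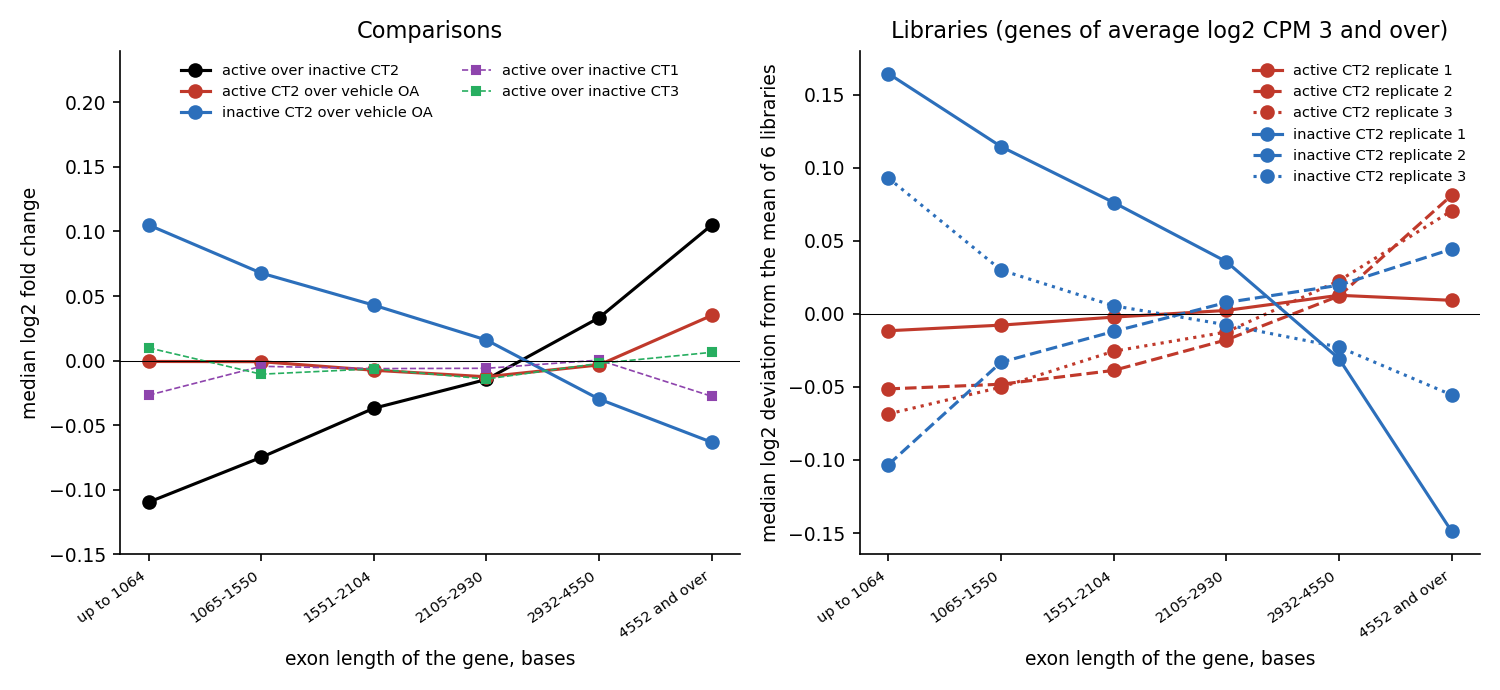
Median log2 fold change by bin of exon length for 5 comparisons (left) and median log2 deviation of each CT2 library from the mean of the 6, for genes averaging 3 or more in log2 CPM (right). Active over inactive CT2 climbs from -0.11 to 0.10 with length, inactive CT2 over vehicle OA falls from 0.11 to -0.06, and the other comparisons stay within 0.04 of 0; inactive CT2 replicate 1 has the steepest slope.

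A few lipid droplet genes, with the perilipin Lsd-1 in front, were higher with active CT2. Of 8 members tested of the list of droplet coat and lipolysis genes, 3 were higher, none was lower, and the median log2 fold change was 0.24, against -0.01 over all genes tested. The shares over all genes tested, 2.03% higher and 0.452% lower, are the background for this and every later list count. Lsd-1 (FBgn0039114, chromosome arm 3R), a perilipin of the droplet surface that controls access of lipases in the fly, had 72.1, 57.1 and 53.7 CPM in active CT2 cells, against 40.3, 45.4 and 35.1 CPM in inactive CT2 cells. All 3 active libraries lay above all 3 inactive libraries. The fitted log2 fold change was 0.65 ± 0.11 (SE), or 1.57-fold (edgeR, adjusted p = 0.00031), and it was not called on leaving out inactive CT2 replicate 3 (adjusted p = 0.0574). Vehicle OA libraries stood lower still, at 28.9 and 20.4 CPM, and vehicle noOA libraries at 18.6 and 14.7 CPM. On the log2 scale, active CT2 against vehicle OA gave 1.34 ± 0.14 (adjusted p = 7.69e-09) and inactive CT2 against vehicle OA 0.69 ± 0.15 (adjusted p = 0.0156). In those 2 comparisons, which share the vehicle OA libraries, 153 genes (2.03%) and 66 genes (0.877%) were DE. With active CT2 148 genes were higher (1.97%) and 5 lower (0.0665%) than in vehicle OA, and with inactive CT2 44 were higher (0.585%) and 22 lower (0.292%), or 62 and 19 with the length offset described above.

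Lsd-2 (FBgn0030608), the second fly perilipin, which protects stored fat, was expressed at a far higher count, with 1044, 965 and 998 CPM in active CT2 cells, against 814, 895 and 842 CPM in inactive CT2 cells. The groups did not overlap, but they were close (log2 fold change 0.24 ± 0.06, adjusted p = 0.0198, edgeR). With the length offset this call was lost (log2 fold change 0.16, adjusted p = 0.124), and it was lost without either of active CT2 replicates 1 and 3 or inactive CT2 replicates 1 and 3 (adjusted p = 0.0533 to 0.101). Seipin, which shapes droplets where they bud from the endoplasmic reticulum, had 36.6, 35.2 and 34.3 CPM in active CT2 cells, against 29.8, 32.6 and 23.7 CPM in inactive CT2 cells. Its difference was 0.38 ± 0.10 on the log2 scale (adjusted p = 0.0359, edgeR), and it was lost on leaving out inactive CT2 replicate 3 (adjusted p = 0.546) or any 1 of the active CT2 replicates (adjusted p = 0.0592 to 0.111).

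Of the genes that make and break down the stored fat, mdy and bmm were not DE, while Lpin and mino were. The acyltransferase gene mdy, which completes triacylglycerol, averaged 49.1 ± 4.58 CPM in active CT2 cells and 47.3 ± 3.88 CPM in inactive CT2 cells (SD, n = 3 each). Its log2 fold change was 0.08 ± 0.10 with a 95% interval of -0.11 to 0.27 (adjusted p = 0.746, edgeR). The lipase gene bmm, the fly counterpart of adipose triglyceride lipase, averaged 18.97 ± 1.04 CPM in active CT2 cells and 18.2 ± 2.37 CPM in inactive CT2 cells (SD, n = 3 each), a difference of 0.03 ± 0.12 with an interval of -0.22 to 0.29. Neither gene differed beyond the spread between libraries. The phosphatidate phosphatase Lpin and the acyltransferase mino were higher, 2 of 8 triacylglycerol synthesis genes tested, at log2 fold changes of 0.42 ± 0.08 and 0.36 ± 0.09 (adjusted p = 0.00113 and 0.0167, edgeR). Lpin had 245, 221 and 212 CPM in active CT2 cells, against 162, 206 and 149.8 CPM in inactive CT2 cells. For mino, active CT2 replicate 3 (77.4 CPM) lay below inactive CT2 replicate 2 (78.1 CPM), and the call was lost without active CT2 replicate 1, inactive CT2 replicate 1 or inactive CT2 replicate 3 (adjusted p = 0.103 to 0.163). In Lpin the third inactive library was the lowest and the second the highest of its group, and the call on Lpin was lost without inactive CT2 replicate 3 (adjusted p = 0.0757).

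**Figure D3:**
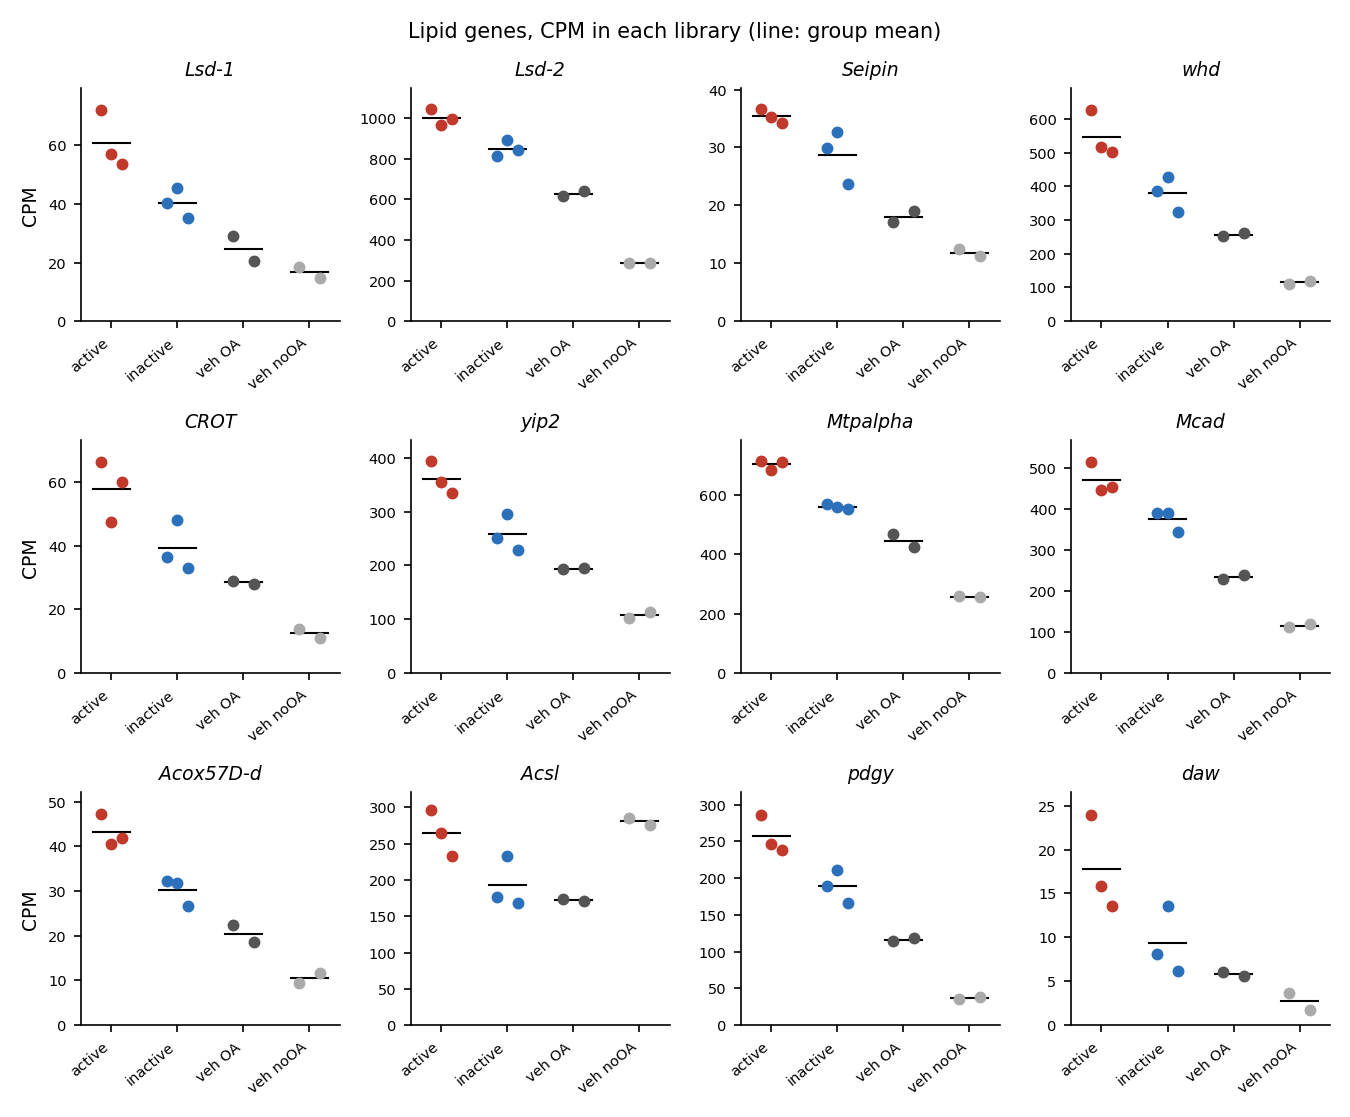
CPM of 12 lipid genes in each library of active CT2, inactive CT2, vehicle OA and vehicle noOA cells (points; lines mark group means; axes start at 0). In most panels active CT2 is above inactive CT2, inactive CT2 above vehicle OA and vehicle OA above vehicle noOA, as in whd at means of 547, 379, 256 and 115 CPM; Acsl departs from this order, with vehicle noOA highest.

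The carnitine shuttle had the highest median of the 26 lists. Of 7 members tested, 4 were higher and none was lower, with a median log2 fold change of 0.50. All 7 had a positive value. Tmlh, the first enzyme of carnitine synthesis, had the largest (1.15 ± 0.41), but at 3.53, 3.50 and 2.38 CPM in active CT2 cells, against 0.339, 2.72 and 1.35 CPM in inactive CT2 cells, it was not called (adjusted p = 0.135, edgeR). It lies outside the rule for named genes and was chosen after its values were seen. The gene whd (FBgn0261862, arm 2R) encodes carnitine palmitoyltransferase 1, which commits long chains to mitochondrial burning. Its level was 625, 516 and 501 CPM in active CT2 cells, against 385, 427 and 325 CPM in inactive CT2 cells. No inactive library reached the lowest active library. The log2 fold change was 0.54 ± 0.08, or 1.46-fold (adjusted p = 1.62e-05, edgeR), and the call held in all 17 alternatives. Vehicle OA libraries had 252 and 261 CPM, and active CT2 against vehicle OA gave 1.09 ± 0.09 (adjusted p = 6.69e-12) and inactive CT2 against vehicle OA 0.55 ± 0.09 (adjusted p = 0.000221).

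Other steps of the shuttle differed by similar amounts. CPT2, which releases the chain from carnitine inside the mitochondrion, had 73.1, 60.2 and 59.2 CPM in active CT2 cells, against 53.9, 49.7 and 44.9 CPM in inactive CT2 cells, a log2 fold change of 0.41 ± 0.09 (adjusted p = 0.00718, edgeR). CROT, a carnitine acyltransferase of peroxisomes, had 66.2, 47.4 and 60.2 CPM in active CT2 cells, against 36.6, 48.2 and 32.9 CPM in inactive CT2 cells. Its groups overlapped at 1 library on each side, active CT2 replicate 2 and inactive CT2 replicate 2, and the log2 fold change was 0.64 ± 0.12 (adjusted p = 0.000573, edgeR). CG5321, listed with carnitine synthesis, was higher at 0.50 ± 0.11 (adjusted p = 0.00921). Without inactive CT2 replicate 3 only whd of the 4 was still called. In the family of organic cation and carnitine transporters 1 of 11 members tested was DE. This was CG8654, with 64.6, 54.4 and 52.8 CPM in active CT2 cells, against 36.9, 43.9 and 35.7 CPM in inactive CT2 cells. The groups did not overlap, the log2 fold change was 0.59 ± 0.10 (adjusted p = 0.00014, edgeR), and the call held in all 17 alternatives.

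Part of the mitochondrial beta-oxidation list was higher. Of 18 members tested, 5 were higher and none was lower, at a median of 0.18; 12 of the 18 values were positive. The 5 were yip2, Acadvl, Mcad and Mtpalpha, with Arc42 as a further gene chosen after its values were seen. A thiolase that performs the final cut, yip2 (FBgn0040064, arm 2L) had 393, 356 and 334 CPM in active CT2 cells, against 251, 295 and 228 CPM in inactive CT2 cells. The lowest active library stood above the highest inactive library. Its log2 fold change of 0.50 ± 0.07 (1.41-fold, adjusted p = 3.20e-05, edgeR) held in all 17 alternatives. Vehicle OA libraries had 193 and 195 CPM, and active CT2 against vehicle OA gave 0.90 ± 0.08 (adjusted p = 4.20e-10) and inactive CT2 against vehicle OA 0.40 ± 0.08 (adjusted p = 0.00712).

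The first dehydrogenation step was represented by Acadvl and Mcad, acyl-CoA dehydrogenases for very long and medium chains. Mcad had 516, 446 and 455 CPM in active CT2 cells, against 391, 391 and 345 CPM in inactive CT2 cells, a log2 fold change of 0.34 ± 0.07 (adjusted p = 0.00173, edgeR). Here inactive CT2 cells stood nearer to active CT2 cells than to vehicle OA cells, which had 229.8 and 239 CPM, and active CT2 against vehicle OA gave 1.01 ± 0.08 (adjusted p = 2.64e-12) and inactive CT2 against vehicle OA 0.67 ± 0.08 (adjusted p = 9.34e-07). Acadvl differed by 0.38 ± 0.07 (adjusted p = 0.00121). Mtpalpha, the alpha subunit of the trifunctional protein, had 715, 684 and 709 CPM in active CT2 cells, against 568, 560.0 and 551 CPM in inactive CT2 cells, and a log2 fold change of 0.33 ± 0.06 (adjusted p = 0.00031, edgeR). The calls on Mcad and Acadvl were lost without inactive CT2 replicate 3 (adjusted p = 0.0574 and 0.0806) and 2 of the 18 members stayed called without it. Electrons from these dehydrogenases enter the respiratory chain through Etf-QO, which was higher by 0.37 ± 0.06 (adjusted p = 0.00028, edgeR).

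In peroxisomal beta-oxidation all 14 members tested had a positive log2 fold change, 6 were higher and none was lower, and the median was 0.27. The 6 were Acox57D-d, ScpX, CG3961 and Mfe2, with Acox57D-p and Abcd3 as further genes chosen after their values were seen. Acox57D-d, an acyl-CoA oxidase, which starts the peroxisomal cycle, had 47.2, 40.6 and 41.8 CPM in active CT2 cells, against 32.2, 31.8 and 26.7 CPM in inactive CT2 cells. These groups were apart, at a log2 fold change of 0.56 ± 0.11 (adjusted p = 0.00122, edgeR), a call lost without inactive CT2 replicate 3 (adjusted p = 0.109). ScpX, a peroxisomal thiolase, differed by 0.37 ± 0.09, Mfe2, the multifunctional enzyme of the middle steps, by 0.30 ± 0.07, and CG3961, an acyl-CoA synthetase by sequence, by 0.32 ± 0.06. The number of DE members was 2 without inactive CT2 replicate 3 and 2 without active CT2 replicate 1. Peroxins, which build the organelle, had a median of 0.16 with 11 of 12 values positive and none DE by edgeR or DESeq2 (3 at an unadjusted p under 0.05 in edgeR).

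Fatty acid activation followed. Of 13 acyl-CoA synthetase and fatty acid transport genes tested, 4 were higher, with a median of 0.18. Acsl (FBgn0263120), a long-chain acyl-CoA synthetase, had 296, 265 and 233 CPM in active CT2 cells, against 177, 233 and 169 CPM in inactive CT2 cells. The second inactive library almost reached the third active library. The log2 fold change was 0.48 ± 0.09 (adjusted p = 0.000807, edgeR), or an adjusted p of 0.0515 without inactive CT2 replicate 3. Acsl differed from most of these genes in its controls, since vehicle noOA libraries had 286 and 276 CPM and vehicle OA libraries 174 and 171 CPM; active CT2 against vehicle OA gave 0.62 ± 0.10 (adjusted p = 4.30e-05) and inactive CT2 against vehicle OA 0.14 ± 0.10 (adjusted p = 0.679). The acyl-CoA synthetase gene pdgy had 286, 247 and 239 CPM in active CT2 cells, against 189, 211 and 166 CPM in inactive CT2 cells, with vehicle OA libraries at 115 and 118 CPM. The active libraries were highest throughout, at a log2 fold change of 0.47 ± 0.07 over inactive CT2 (adjusted p = 6.02e-05, edgeR). CG6178, a further member, was higher by 0.45 ± 0.07 (adjusted p = 0.000174), a call that held in all 17 alternatives.

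Fatty acid synthesis showed no such shift. None of 12 members tested was DE by edgeR or DESeq2, the median was 0.04, and 1 had an unadjusted p under 0.05. CG3523, a fatty acid synthase, had 256, 262 and 243 CPM in active CT2 cells, against 176, 261 and 206 CPM in inactive CT2 cells. The second inactive library lay among the active libraries. Its log2 fold change was 0.25 ± 0.11, with a 95% interval of 0.03 to 0.48 (adjusted p = 0.25, edgeR), and without inactive CT2 replicate 2 the adjusted p was 0.0268. Vehicle noOA libraries had 717 and 742 CPM. Of 14 genes of phospholipid head group synthesis only Cds, which makes CDP-diacylglycerol, was DE, at 0.35 ± 0.09 (adjusted p = 0.0154, edgeR), and it was not called without inactive CT2 replicate 3 (adjusted p = 0.300).

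**Figure D4:**
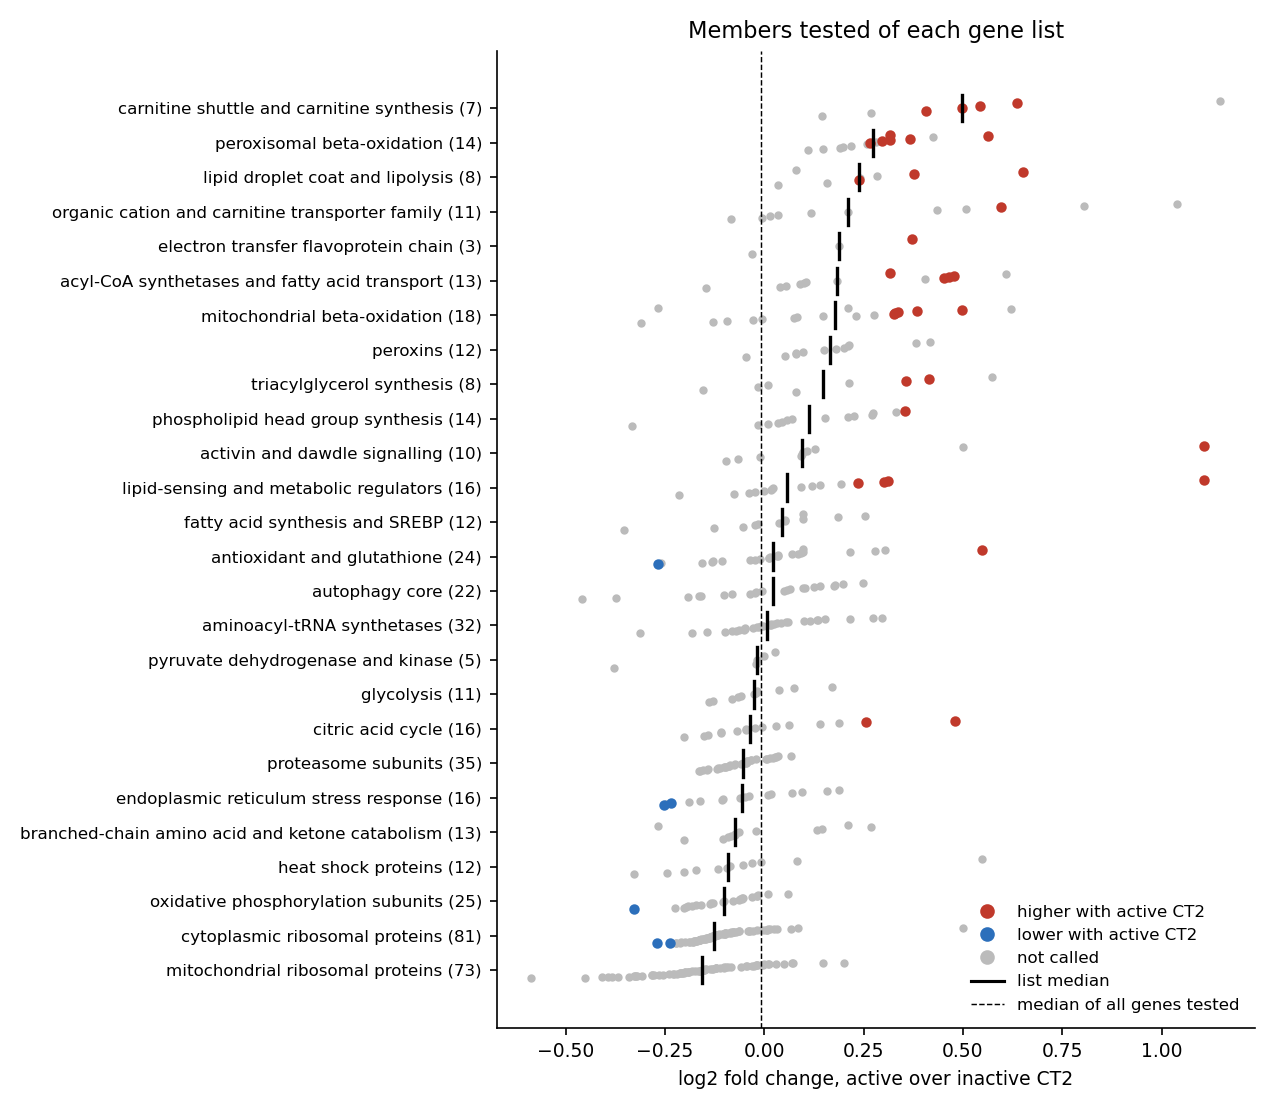
Log2 fold change of active over inactive CT2 for the members tested of each of 26 gene lists, ordered by median (solid bar; number tested in parentheses; the dashed line is the median of all genes tested). Lists of fatty acid burning and lipid droplets lie to the right, up to 0.50 for the carnitine shuttle, and ribosomal proteins to the left, down to -0.16 for those of mitochondria.

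Among central metabolism and regulators, few genes were called. In the citric acid cycle list 2 of 16 members were higher at a list median of -0.04. PCB, pyruvate carboxylase, which refills the cycle with oxaloacetate, had 261, 223 and 223 CPM in active CT2 cells, against 160.3, 188 and 161 CPM in inactive CT2 cells. The groups were apart, at 0.48 ± 0.07 (adjusted p = 6.02e-05, edgeR), and inactive CT2 did not differ detectably from vehicle OA (0.15 ± 0.09, adjusted p = 0.549). ScsbetaA, a subunit of succinyl-CoA synthetase, was higher by 0.26 ± 0.06 (adjusted p = 0.00943). The activin-like ligand gene daw (FBgn0031461), which in flies acts on sugar and lipid metabolism, had 23.9, 15.9 and 13.6 CPM in active CT2 cells, against 8.13, 13.6 and 6.20 CPM in inactive CT2 cells. Active CT2 replicate 3 was level with inactive CT2 replicate 2. The log2 fold change was 1.11 ± 0.21, or 2.16-fold (adjusted p = 0.00122, edgeR). It was not called without inactive CT2 replicate 3 (adjusted p = 0.164). With DESeq2, 1 of the 16 lipid-sensing regulators was DE and daw was not. Of the 10 activin and dawdle pathway genes tested, daw was the only one DE.

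Of 16 lipid-sensing and metabolic regulators tested, EcR, foxo and srl were DE beside daw. EcR, the ecdysone receptor, had 128, 132 and 135 CPM in active CT2 cells, against 111, 115 and 99.2 CPM in inactive CT2 cells, a log2 fold change of 0.30 ± 0.07 (adjusted p = 0.0106, edgeR). With the length offset none of EcR, foxo and srl was called (adjusted p = 0.309, 0.0692 and 0.202); their exons span 9934, 4130 and 4642 bases. For the forkhead factor gene foxo the groups overlapped, with inactive CT2 replicate 2 at 97.5 CPM and the lowest active CT2 library at 97.2 CPM. The calls on foxo and srl were lost on leaving out any library but inactive CT2 replicate 2 (adjusted p = 0.0628 to 0.368, edgeR). That on EcR was lost without active CT2 replicate 3 or inactive CT2 replicate 3 (adjusted p = 0.0501 and 0.203, edgeR). Hnf4, the lipid-sensing nuclear receptor of the list, was not called, at 0.14 ± 0.07 with an interval of 0.01 to 0.28 (adjusted p = 0.298); it was chosen after its values were seen.

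The largest rises lay outside the lipid lists. After the rule for named genes they were CG3270, CG12071, Tpc2, CG8908, Cc2d2a, CG10550, CG7069, CG11378, CG3277 and SLC5A11. That rule had already required the active and inactive CT2 groups to be apart, here and for the named falls below. In CG3270, CG12071, Tpc2, CG8908, Cc2d2a, CG7069, CG3277 and CG11378 inactive CT2 had a lower mean level than both active CT2 and vehicle OA. For CG11378 the gap to vehicle OA was narrow (means of 5.46 and 5.55 CPM). In 4 of these genes, CG12071, Tpc2, CG8908 and Cc2d2a, the difference between inactive CT2 and vehicle OA was DE. Tpc2 (FBgn0035078, arm 2R), a mitochondrial carrier of thiamine pyrophosphate, had 29.2, 25.8 and 24.6 CPM in active CT2 cells, against 12.5, 14.8 and 12.4 CPM in inactive CT2 cells. Vehicle OA libraries had 30.04 and 25.2 CPM and vehicle noOA libraries 27.97 and 31.8 CPM, in the range of active CT2. The log2 fold change of active over inactive CT2 was 1.03 ± 0.13, or 2.05-fold (adjusted p = 1.61e-06, edgeR), and the call held in all 17 alternatives; active CT2 against vehicle OA gave -0.05 ± 0.12 (adjusted p = 0.97) and inactive CT2 against vehicle OA -1.08 ± 0.14 (adjusted p = 7.72e-06).

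CG12071 (FBgn0039808) showed the same order, with 8.03, 7.42 and 7.52 CPM in active CT2 cells, against 2.71, 3.50 and 3.51 CPM in inactive CT2 cells, and vehicle OA libraries at 9.37 and 8.01 CPM. It rested on 8 to 41 counts per library. Its log2 fold change was 1.20 ± 0.24 (adjusted p = 0.00236, edgeR), with inactive CT2 against vehicle OA at -1.37 ± 0.27 (adjusted p = 0.004). CG8908 had 12.1, 11.3 and 14.1 CPM in active CT2 cells, against 4.07, 6.60 and 6.88 CPM in inactive CT2 cells, with 13.5 and 14.2 CPM in vehicle OA libraries. Every inactive library was the lower, and the differences were 1.03 ± 0.19 between the derivatives and -1.17 ± 0.21 between inactive CT2 and vehicle OA (adjusted p = 0.000675 and 0.00121, edgeR). Cc2d2a, a protein of the base of the cilium, had 15.9, 17.1 and 11.9 CPM in active CT2 cells, against 7.12, 11.7 and 5.80 CPM in inactive CT2 cells, with 16.8 and 19.6 CPM in vehicle OA libraries. Active CT2 replicate 3 was only just above inactive CT2 replicate 2, at a log2 fold change of 1.02 ± 0.22 (adjusted p = 0.00421, edgeR), and the call was lost without inactive CT2 replicate 3 (adjusted p = 0.221). With the length offset all 4 stayed DE (adjusted p = 4.75e-07 to 0.00317). RhoGEF3 and Muc68Ca, chosen after their values were seen, had the same pattern at higher counts, with log2 fold changes of 0.80 ± 0.12 and 0.58 ± 0.10 between the derivatives and -0.83 ± 0.14 and -0.56 ± 0.11 between inactive CT2 and vehicle OA.

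SLC5A11, CG10550 and CG11378 were above the solvent control with active CT2. SLC5A11 (FBgn0031998), a sodium-coupled solute carrier, had 46.2, 39.8 and 34.5 CPM in active CT2 cells, against 24.7, 32.2 and 18.2 CPM in inactive CT2 cells, with 16.5 and 14.4 CPM in vehicle OA libraries. Active libraries were highest, at a log2 fold change of 0.81 ± 0.14 over inactive CT2 (adjusted p = 0.000234, edgeR); active CT2 against vehicle OA gave 1.38 ± 0.17 (adjusted p = 1.27e-07) and inactive CT2 against vehicle OA 0.58 ± 0.19 (adjusted p = 0.174). CG11378 had 10.4, 10.7 and 9.72 CPM in active CT2 cells, against 6.44, 4.27 and 5.66 CPM in inactive CT2 cells, and vehicle OA libraries 4.68 and 6.41 CPM. Inactive CT2 and vehicle OA overlapped, while active CT2 was 1.84-fold above inactive CT2 (log2 0.88 ± 0.19, adjusted p = 0.00447, edgeR). Without inactive CT2 replicate 3 neither SLC5A11 nor CG11378 was called (adjusted p = 0.0919 and 0.0702). CG10550 had 5.29, 6.18 and 5.32 CPM in active CT2 cells, against 3.05, 1.94 and 2.97 CPM in inactive CT2 cells, from 5 to 30 counts per library. Its call was lost when any 1 of the 6 libraries other than inactive CT2 replicate 2 was left out (adjusted p = 0.0501 to 0.124). CG7069, CG3277 and CG3270 were DE at 0.90 ± 0.23, 0.87 ± 0.25 and 1.68 ± 0.47 (adjusted p = 0.0221, 0.0476 and 0.0442, edgeR), but CG3270 had between 1 and 17 counts per library and all 3 lost the call without inactive CT2 replicate 3 (adjusted p = 0.0919, 0.302 and 0.319). Exons of several of these genes overlap exons of a gene on the opposite strand in the current annotation, among them Tpc2 with CG9083, whd with CG11777, Lsd-1 with CG10214 and SLC5A11 with PGAP5. The labels call the libraries stranded, but the strand setting of the counting was not given in the sources used here, so reads of such neighbours cannot be told apart.

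Falls were fewer. Of the 10 named, only Cyp6a8 and MtnA also differed between inactive CT2 and vehicle OA, both being higher with inactive CT2. Cyp6a8 (FBgn0013772, arm 2R), a cytochrome P450, had 34.9, 28.4 and 24.9 CPM in active CT2 cells, against 59.3, 49.3 and 47.6 CPM in inactive CT2 cells. Vehicle OA libraries had 18.2 and 21.8 CPM, below every library with a derivative. Active CT2 was lower than inactive CT2 (log2 fold change -0.80 ± 0.13, adjusted p = 0.000167, edgeR); active CT2 against vehicle OA gave 0.53 ± 0.18 (adjusted p = 0.148) and inactive CT2 against vehicle OA 1.33 ± 0.17 (adjusted p = 3.34e-06). MtnA, a metallothionein, which binds zinc and copper, had 28.4, 29.9 and 33.7 CPM in active CT2 cells, against 49.8, 34.95 and 51.1 CPM in inactive CT2 cells. The lowest inactive library was only just above the highest active library, at a log2 fold change of -0.61 ± 0.11 (adjusted p = 0.000481, edgeR), and the call was lost without inactive CT2 replicate 3 (adjusted p = 0.0806). Vehicle OA libraries had 28.9 and 34.7 CPM, and inactive CT2 stood above them by 0.55 ± 0.13 (adjusted p = 0.0182). ZnT35C, a zinc transporter, had the largest fall of any DE gene (-1.05 ± 0.25, adjusted p = 0.0154), but its libraries overlapped, with 3.53, 6.39 and 7.89 CPM in active CT2 cells, against 11.5, 6.21 and 15.4 CPM in inactive CT2 cells; it was chosen after its values were seen.

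The other 8 named falls ranged from -0.72 (CG14543) to -0.35 (msb1l) on the log2 scale. They included Amy-p, an amylase, at -0.43 ± 0.12, Cdc45, part of the replicative helicase, at -0.38 ± 0.11, bora, an activator of Aurora kinase, at -0.50 ± 0.14, Taf13, a subunit of the general transcription factor TFIID, at -0.52 ± 0.15, and p24-1, a cargo receptor of the early secretory path, at -0.37 ± 0.09. CG14543 had 8.03, 5.97 and 7.15 CPM in active CT2 cells, against 11.9, 12.04 and 11.5 CPM in inactive CT2 cells. Its adjusted p was 0.0136 (edgeR), and the rule for named genes had already required the groups to be apart. Each of these 8 calls was lost on leaving out at least 2 of the 6 libraries in turn, and those on Taf13 and msb1l also with the length offset (adjusted p = 0.0983 and 0.0783).

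**Figure D5:**
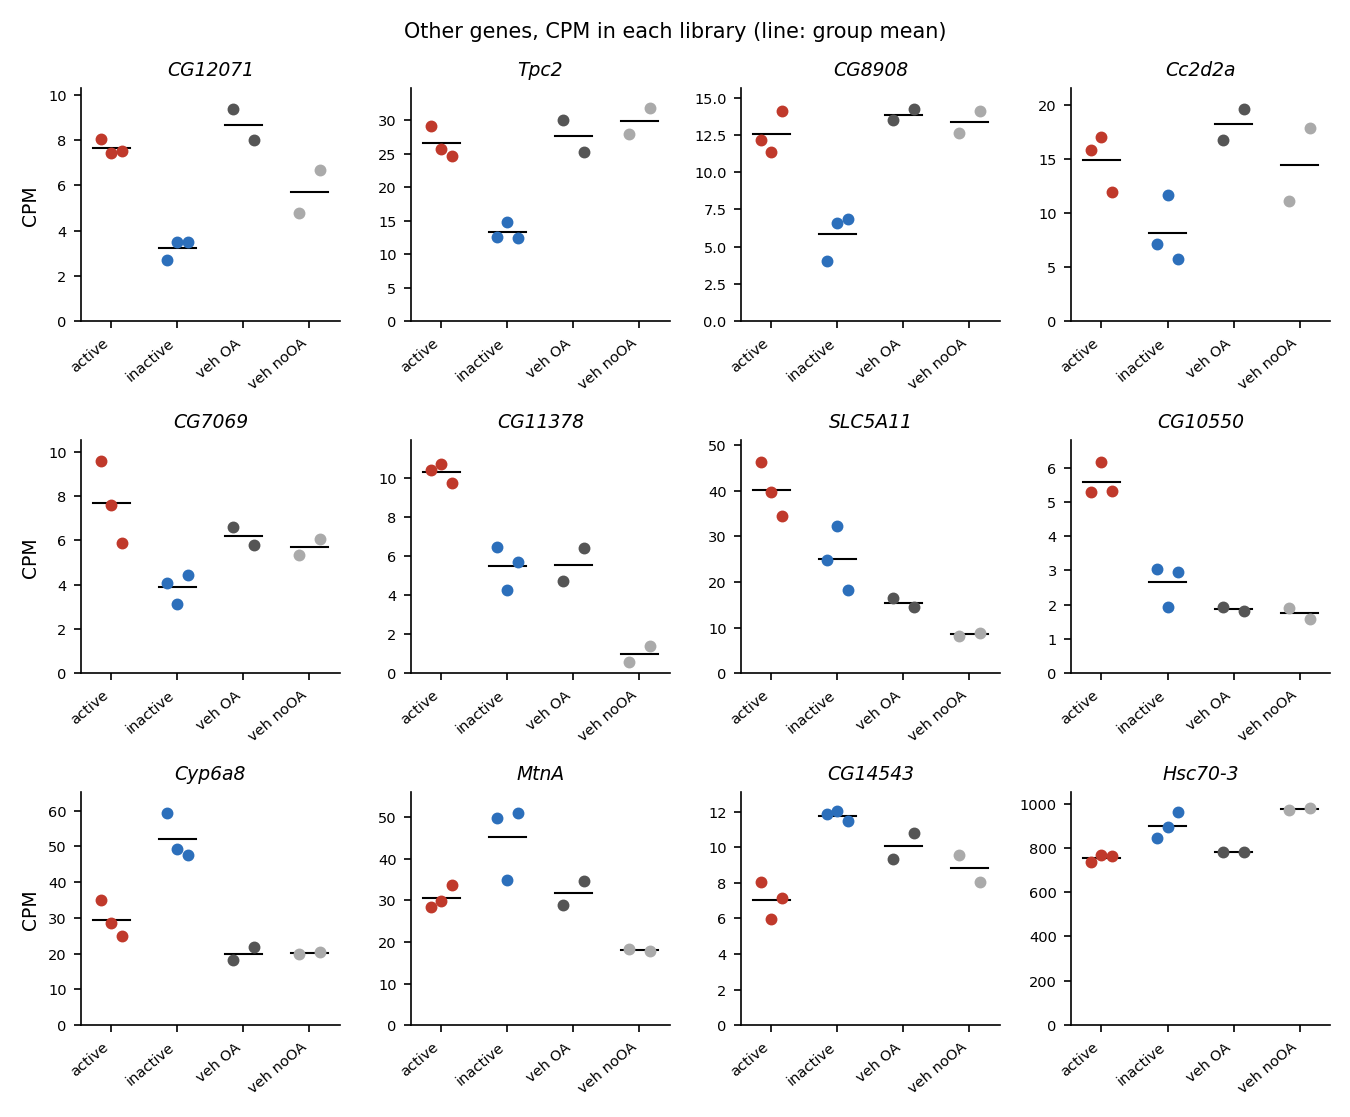
CPM of 12 genes outside the lipid lists or among the falls, in each library of active CT2, inactive CT2, vehicle OA and vehicle noOA cells (points; lines mark group means; axes start at 0). In CG12071, Tpc2, CG8908 and Cc2d2a the inactive CT2 libraries are the low ones, in SLC5A11, CG10550 and CG11378 the active CT2 libraries are the high ones, and in Cyp6a8 and MtnA the inactive CT2 libraries are the high ones.

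Major chaperones of the endoplasmic reticulum were among the falls. Of 16 genes of the stress response of this organelle tested, 2 were lower and none was higher, at a median of -0.06. Over all genes tested 0.452% were lower and 2.03% higher. Hsc70-3, the fly BiP, had 737, 766 and 764 CPM in active CT2 cells, against 844, 892 and 961 CPM in inactive CT2 cells, a log2 fold change of -0.25 ± 0.06 (adjusted p = 0.014, edgeR). Calr, calreticulin, had 797, 726 and 742 CPM in active CT2 cells, against 936, 854 and 875 CPM in inactive CT2 cells, a difference of -0.23 ± 0.06 (adjusted p = 0.014, edgeR). In neither gene did the groups overlap, both differences were under 1.25-fold, and both calls stayed with the length offset (log2 fold changes -0.30 and -0.22, adjusted p = 0.000384 and 0.011). Leaving out active CT2 replicate 1 or inactive CT2 replicate 3 removed the call on Hsc70-3, and leaving out active CT2 replicate 2 or 3 or inactive CT2 replicate 1 that on Calr. Vehicle OA libraries had 781 and 780.0 CPM of Hsc70-3 and 829 and 807 CPM of Calr, the first near active CT2 and the second between the derivatives.

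Of 24 glutathione and antioxidant genes tested 1 was higher and 1 lower, at a list median of 0.02, against 2.03% higher and 0.452% lower over all genes. GstT3, a theta class glutathione transferase, was higher, with 40.7, 31.9 and 33.2 CPM in active CT2 cells, against 22.02, 29.1 and 23.1 CPM in inactive CT2 cells, and GstD1, of the delta class, was lower, with 588, 520.2 and 545 CPM in active CT2 cells, against 717, 629 and 644 CPM in inactive CT2 cells. Their log2 fold changes were 0.55 ± 0.12 and -0.27 ± 0.06 (adjusted p = 0.00421 and 0.00899, edgeR). The call on GstT3 was lost without active CT2 replicate 1 (adjusted p = 0.0628) or inactive CT2 replicate 3 (0.115), and that on GstD1 without active CT2 replicate 2 (0.0958) or inactive CT2 replicate 1 (0.0804).

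Ribosomal protein and respiratory genes had list medians below that of all genes, with few single calls. Of 81 cytoplasmic ribosomal proteins tested 2 were lower, RpLP2 and RpS18, at a list median of -0.13. An unadjusted p under 0.05 in edgeR was found for 33 of the 81, and 9 of the 81 values were positive. Of 73 mitochondrial ribosomal proteins none was DE by edgeR or DESeq2 (15 at an unadjusted p under 0.05 in edgeR), at a median of -0.16, and of 25 oxidative phosphorylation subunits COX5A was lower (-0.33 ± 0.07, adjusted p = 0.0035) at a median of -0.10. These are short genes, with median exon lengths of 936, 786 and 886 bases, and with the length offset the medians were -0.08, -0.10 and -0.06 and neither RpLP2 nor RpS18 was DE. Without inactive CT2 replicate 2, 19 cytoplasmic ribosomal proteins were called, and without inactive CT2 replicate 1 none was. The medians of the lipid lists with the offset were 0.51 for the carnitine shuttle, 0.28 for peroxisomal and 0.23 for mitochondrial beta-oxidation, and 0.19 for droplet genes. Proteasome subunits (35 tested), aminoacyl-tRNA synthetases (32), autophagy genes (22), catabolism of branched-chain amino acids and ketones (13), heat shock proteins (12), glycolysis (11) and pyruvate dehydrogenase (5) had no DE gene by edgeR or DESeq2 and medians between -0.09 and 0.02. At an unadjusted p under 0.05 in edgeR they held 4, 3, 1, 3, 3, 1 and 1 genes in that order.

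The 2 smallest adjusted p-values of the comparison belonged to CG14961 and axo, which are in no list and were chosen after their values were seen. CG14961 had 83.6, 76.2 and 69.9 CPM in active CT2 cells, against 45.1, 49.7 and 40.6 CPM in inactive CT2 cells, with 61.2 and 62.9 CPM in vehicle OA libraries. Its log2 fold change was 0.80 ± 0.09 (adjusted p = 1.74e-07, edgeR), and active CT2 against vehicle OA gave 0.30 ± 0.09 (adjusted p = 0.0843) and inactive CT2 against vehicle OA -0.50 ± 0.10 (adjusted p = 0.00506). The gene axo had 141, 134 and 129 CPM in active CT2 cells, against 74.2, 96.3 and 87.2 CPM in inactive CT2 cells, with 77.99 and 81.1 CPM in vehicle OA libraries. Its log2 fold change was 0.65 ± 0.07 (adjusted p = 4.13e-07, edgeR), and active CT2 against vehicle OA gave 0.76 ± 0.08 (adjusted p = 2.66e-08) and inactive CT2 against vehicle OA 0.11 ± 0.09 (adjusted p = 0.735). Neither gene overlapped between the derivatives.

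The difference between active and inactive CT2 was set against the same difference for CT1 (tetrahydroindazole core) and CT3 (arylureido core), at the same dose, time and OA, by testing the difference of the differences in the same fit. These 3 pairs share no library. Between their own active and inactive derivatives 957 genes (12.7%) were DE for CT1, of which 633 were higher (8.42%) and 324 lower (4.31%), and 277 genes (3.68%) for CT3, of which 235 were higher (3.12%) and 42 lower (0.558%), against 187 (2.49%) for CT2. The CT2 difference departed from the CT1 difference in 578 genes (7.68%), being more positive in 244 (3.24%) and more negative in 334 (4.44%). With the length offset these were 150 and 407. It departed from the CT3 difference in 63 genes (0.838%), more positive in 20 (0.266%) and more negative in 43 (0.572%). Of the 153 genes higher with active CT2, 88 were also higher with active CT1, which is 57.5% of the CT2 genes and 13.9% of the 633 CT1 genes, and 21 were lower with active CT1. With active CT3, 77 were also higher, 50.3% of the CT2 genes and 32.8% of the 235 CT3 genes, and 2 were lower. Of the 34 genes lower with active CT2, 2 were also lower with active CT1 and 4 with active CT3, while 6 and 2 were higher.

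In the carnitine shuttle, peroxisomal beta-oxidation and lipid droplet lists the median CT2 difference was the smallest of the 3 pairs. The median over carnitine shuttle genes was 0.50 for CT2, 1.22 for CT1 and 0.92 for CT3. For peroxisomal beta-oxidation the medians were 0.27, 0.94 and 0.63 in the same order, and for droplet genes 0.24, 0.97 and 0.58. All 3 lists had no member whose CT2 difference was the larger by the test, and 5 of 7, 11 of 14 and 5 of 8 members had a smaller one than in CT1. Against CT3 this held for 0 of 7, 3 of 14 and 2 of 8 members, so that most did not pass the test. The largest such departure among the named lipid genes was that of Lsd-1, at -2.12 ± 0.16 (adjusted p = 9.14e-13) from CT1 and -1.18 ± 0.16 (adjusted p = 2.81e-05) from CT3. Its active over inactive log2 fold change was 0.65 ± 0.11 for CT2, 2.77 ± 0.10 for CT1 and 1.83 ± 0.11 for CT3. For whd the same values were 0.54 ± 0.08, 1.32 ± 0.08 and 0.92 ± 0.08, and the CT2 difference departed from that of CT1 by -0.78 ± 0.11 (adjusted p = 1.02e-06) and from that of CT3 by -0.38 ± 0.11 (adjusted p = 0.0758). Mitochondrial beta-oxidation had list medians of 0.18, 0.39 and 0.35 for CT2, CT1 and CT3, and acyl-CoA synthetases and fatty acid transport 0.18, 0.60 and 0.46. Lipid-sensing regulators had 0.06, -0.05 and 0.04. Inactive CT1 and CT3 were not set against vehicle OA here, so these differences do not rank the active derivatives.

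In 3 lists of fatty acid burning the median over vehicle OA was positive with either CT2 derivative. The median of carnitine shuttle genes over vehicle OA was 1.00 with active CT2 and 0.39 with inactive CT2. For peroxisomal beta-oxidation it was 0.60 and 0.35, and for mitochondrial beta-oxidation 0.42 and 0.32, in comparisons that share the vehicle OA libraries, against 0.00 and 0.01 over all genes tested.

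Among named genes the reverse departure from both other pairs was seen in 4, which were DE and lower with inactive CT2 than in vehicle OA. From CT1 alone it was also seen in CG3270, CG7069, EcR and srl (3.15, 1.73, 0.46 and 0.32). These were not DE between inactive CT2 and vehicle OA. Tpc2 had an active over inactive log2 fold change of 1.03 ± 0.13 for CT2, -0.84 ± 0.12 for CT1 and -0.39 ± 0.11 for CT3, so that the CT2 difference departed by 1.87 ± 0.18 (adjusted p = 4.45e-10) and 1.42 ± 0.17 (adjusted p = 2.85e-06). CG12071, CG8908 and Cc2d2a departed in the same direction from both other pairs, by 2.08, 2.04 and 2.05 from CT1 and by 1.63, 1.29 and 1.43 from CT3 (adjusted p = 3.80e-07 to 0.0051, edgeR). Of the 10 named genes with a more positive CT2 value than both other pairs, these 4 passed the test against both. RhoGEF3, Muc68Ca, CG14961 and CG12947, chosen after their values were seen, had the same pattern. They passed against both pairs and were DE and lower with inactive CT2 than in vehicle OA (adjusted p = 2.12e-07 to 0.0263, edgeR). In the other direction Cyp6a8 had an active over inactive log2 fold change of -0.80 ± 0.13 for CT2, 1.49 ± 0.12 for CT1 and 0.63 ± 0.15 for CT3 (adjusted p = 0.000167, 6.23e-13 and 0.00631, edgeR). Hsc70-3, lower for CT2, was 0.60 ± 0.06 for CT1, a departure of -0.86 ± 0.09 (adjusted p = 1.00e-09).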

How the data were processed

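RNA from 36 cultures was sequenced, of which the 22 with DMSO named above entered 1 fit (3 for each of 6 derivative groups, 2 vehicle OA and 2 vehicle noOA libraries of the 24 with DMSO). The authors deposited raw counts per gene, made with CASAVA 1.8.2, TopHat2 2.0.10, SAMtools 0.1.19 and HTSeq 0.5.4p1, and FPKM from Cufflinks 2.1.1, which the deposited tables do not scale between libraries beyond depth. Counts of 17142 genes were filtered by filterByExpr, leaving 7522, scaled by TMM factors and entered the quasi-likelihood test of edgeR 4.0.16 (R 4.3.3; glmQLFit, glmQLFTest, group as the only term, two-sided, Benjamini-Hochberg threshold 0.05). SE is the log2 fold change divided by the square root of F. FPKM, on the log2(FPKM + 1) or log2(FPKM + 0.1) scale, served only in an alternative with limma 3.58.1, and DESeq2 1.42.0 was another. Exon lengths came from a current annotation for 97.6% of tested genes.

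Named genes were the 10 largest rises and falls among DE genes averaging 1 or more in log2 CPM whose groups were apart, 5 storage genes (mdy, Lsd-1, Lsd-2, bmm, CG3523), and up to 4 DE genes per list with the smallest adjusted p. The groups, lists and genes were chosen with earlier results of these data known. Vehicle libraries followed the study's removal of replicates of low correlation. Alternatives were DESeq2, RLE factors, no filter, only the groups compared, all 24 libraries, a replicate block, removal of 18S, the length offset, FPKM with limma, and each replicate left out.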

Additional observations from a re-analysis of the deposited data

Results flagged for a closer look

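Genes were picked out where the active minus inactive difference of CT2 departed from that of another chemotype at an adjusted p under 0.05 (edgeR test of the difference of the differences). Against CT1 this held for 578 genes and against CT3 for 63. Among the named genes, the log2 CT2 difference minus the CT1 difference was positive in CG3270 (3.15), CG12071 (2.08), Cc2d2a (2.05), CG8908 (2.04), Tpc2 (1.87), CG7069 (1.73), EcR (0.46), srl (0.32). It was negative in Cyp6a8 (-2.29), Lsd-1 (-2.12), Acox57D-d (-1.16), Lsd-2 (-1.02), GstT3 (-1.02), pdgy (-1), Mcad (-0.99), Seipin (-0.97), CG11378 (-0.93), CROT (-0.93), Acsl (-0.93), yip2 (-0.87), Hsc70-3 (-0.86), MtnA (-0.85), Lpin (-0.83), Mfe2 (-0.79), whd (-0.78), CPT2 (-0.78), CG8654 (-0.77), CG3523 (-0.76), CG5321 (-0.73), CG6178 (-0.71), Cds (-0.68), Mtpalpha (-0.64), bmm (-0.57), ScpX (-0.53), p24-1 (-0.51), Etf-QO (-0.47), Acadvl (-0.45), mino (-0.44), CG3961 (-0.41), PCB (-0.41), ScsbetaA (-0.38), RpLP2 (-0.33), Calr (-0.31), COX5A (-0.31), GstD1 (-0.30). The log2 CT2 difference minus the CT3 difference was positive in CG12071 (1.63), Cc2d2a (1.43), Tpc2 (1.42), CG8908 (1.29) and negative in Cyp6a8 (-1.42), Lsd-1 (-1.18), bora (-0.91), Mcad (-0.60), msb1l (-0.56), CG6178 (-0.53), yip2 (-0.51), pdgy (-0.48), Lsd-2 (-0.44), Acadvl (-0.42), Mtpalpha (-0.34). No group had enough libraries for a test of single outlying libraries, although inactive CT2 replicate 1 had the lowest rho with active CT2 libraries.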

How the results depend on the processing

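The count of 187 genes between active and inactive CT2 was 118 with DESeq2, 69 with only the 6 CT2 libraries in the fit, and 20, 21 and 18 with limma on log2(FPKM + 1), log2(FPKM + 0.1) and unfiltered FPKM, where the median of all genes stood at 0.11, 0.12 and 0.06. Leaving out 1 replicate gave 59 (without inactive CT2 replicate 3) to 420 (without inactive CT2 replicate 2). The length offset gave 147, and, added after the data were seen, 122 together with leaving out inactive CT2 replicate 1 and 49 with leaving out inactive CT2 replicate 3. Against CT1 the 578 genes became 378 with DESeq2 and 103, 101 and 88 with limma; leaving out 1 replicate gave 452 to 651. Against CT3 the 63 genes became 112 without the filter on low counts and 0, 0 and 3 with limma (462, 451 and 696 at an unadjusted p under 0.05; DESeq2 called 54); leaving out 1 replicate gave 45 to 84. Active CT2 against vehicle OA, with 153, gave 63, 64 and 60 with limma and 74 (without vehicle OA replicate 2) to 163 on leaving out 1 replicate. Inactive CT2 against vehicle OA, with 66, gave 17 with only the groups compared, 1, 1 and 2 with limma, and 9 (without vehicle OA replicate 2) to 111 (without inactive CT2 replicate 2) on leaving out 1 replicate, with 20 without vehicle OA replicate 1 and 34 without inactive CT2 replicate 1. The causes were not tested.

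With the replicate block the 187 became 215. Same-numbered active and inactive CT2 libraries correlated at 0.159, 0.0610 and 0.0572 in their deviations from the group means. Differently numbered ones correlated at -0.111 to 0.0566. The numbers were not taken as pairs in the main fit, and these values do not settle whether they mark pairs. No log2 fold change of a named gene changed sign to a called value. Of the 56 named DE genes 14 were called whichever replicate was left out, and 37 lost the call without inactive CT2 replicate 3, 2 on leaving out replicate 2 of that group and 19 on leaving out its replicate 1. For active CT2 replicates 1, 2 and 3 the number was 22, 19 and 15. Only CG8654, Tpc2, CG6178, yip2 and whd were called in all 17 alternatives. At 3 libraries a group and 1430929 to 4150903 counts outside 18S, differences in low genes were poorly resolved.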

Other observations

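Several genes outside all lists and outside the rule for named genes, chosen here after their values were seen, differed between the derivatives and were called whichever of the 6 libraries was left out. Prestin, an anion transporter of the SLC26 family, had 73.1, 68.6 and 61.99 CPM in active CT2 cells, against 45.1, 51.6 and 42.6 CPM in inactive CT2 cells, a log2 fold change of 0.58 ± 0.09 (adjusted p = 6.34e-05, edgeR). Irp-1B, an iron regulatory protein related to aconitase, had 109.5, 101 and 96.7 CPM in active CT2 cells, against 76.6, 84.7 and 67.5 CPM in inactive CT2 cells, at 0.46 ± 0.08 (adjusted p = 0.000259). The gene dnr1 had 57.98, 55.01 and 48.8 CPM in active CT2 cells, against 33.9, 40.4 and 26.6 CPM in inactive CT2 cells, at 0.77 ± 0.11 (adjusted p = 3.86e-05), with 23.1 and 22.6 CPM in vehicle OA and 7.47 and 9.61 CPM in vehicle noOA libraries. Treh, trehalase, which splits the blood sugar of insects, had 111, 96.01 and 112 CPM in active CT2 cells, against 77.3, 88.2 and 79.3 CPM in inactive CT2 cells, at 0.39 ± 0.07 (adjusted p = 0.0009). Aldh-III, a fatty aldehyde dehydrogenase, had 784, 745 and 719.7 CPM in active CT2 cells, against 633, 637 and 598 CPM in inactive CT2 cells, at 0.27 ± 0.06 (adjusted p = 0.00268). In each of these 5 genes every active CT2 library was above every inactive CT2 library, and all 5 stayed DE with the length offset (adjusted p = 8.80e-06 to 0.00937). Ppcs, an enzyme of coenzyme A synthesis, differed by 0.49 ± 0.08 (adjusted p = 0.00031), with 91.7, 88.6 and 87.1 CPM in active CT2 cells, against 66.8, 72.2 and 57.3 CPM in inactive CT2 cells, and its call was lost without inactive CT2 replicate 3 (adjusted p = 0.0622).

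Sirup, an assembly factor of succinate dehydrogenase, had 60.7, 55.2 and 54.5 CPM in active CT2 cells, against 45.4, 41.9 and 41.5 CPM in inactive CT2 cells, with 19.3 and 26.4 CPM in vehicle OA libraries. Both derivatives lay above the solvent control, and active CT2 against vehicle OA gave 1.28 ± 0.12 (adjusted p = 5.29e-10) and inactive CT2 against vehicle OA 0.87 ± 0.13 (adjusted p = 7.49e-05), while the derivatives differed by 0.41 ± 0.09 (adjusted p = 0.00919, edgeR), a call lost without active CT2 replicate 1 or inactive CT2 replicate 3 (adjusted p up to 0.123).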
